A study of Rattus norvegicus with 61 samples.

Results

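The 100 transcripts described here were the ones that sorted rat CD4 T cells and CD8 T cells held at a similar level and above every other sorted immune cell type. They were chosen from 31196 measured transcripts by their level in CPM, the estimated count of a transcript divided by the sample total and multiplied by 1000000. A member had a mean of at least 2 CPM in both T cell types, a CD4-to-CD8 ratio within 1.5 either way after 1 CPM was added to each mean, and a mean under 1 CPM over the 15 livers. Its T cell excess, the lower T cell mean plus 1 CPM divided by the highest mean of the other types plus 1 CPM, had to be over 1.5, and the 100 transcripts with the highest excess were kept. The deposited table gives Ensembl transcript identifiers without gene names, and 0 of these identifiers matched the reference table of 47357 rat genes, so members are described by rank, by counts and in a few cases by identifier.

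The series was made to build reference profiles of immune cells for deconvolution in rats and to compare them with mixed tissues. All samples came from wild-type (WT) male Sprague-Dawley rats, 6 weeks old, and the sorted cells, the spleens and the whole blood cells (WBC, blood after lysis of erythrocytes) were from untreated animals. CD4 T, CD8 T, NK and B cells were sorted from spleen, and monocytes and neutrophils from blood, with 6 samples a type. T cells were gated on CD3 with CD4 or CD8a, NK cells on CD161 and B cells on CD45RA, both of the latter without CD3, and these 4 types were all taken as positive for CD45 and negative for CD11b. The myeloid types were CD11b positive and were divided by side scatter, with intermediate CD43 as a further gate for neutrophils. The T cell types therefore came only from spleen, and no T cell sorted from blood was measured. Spleen and WBC had 5 samples each. The livers, perfused before collection, were taken 24 h after gavage of 0.5% methylcellulose (vehicle, n = 5), acetaminophen (APAP) at 3 g/kg (n = 5) or 4,4'-methylene dianiline (MDA) at 300 mg/kg (n = 5), in rats fasted before dosing. The labels do not say which samples share a rat, so the p-values below measure the spread between these samples only.

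T cells carry the antigen receptor together with the CD3 signalling complex. CD4 T cells read peptide on MHC class II and mainly help other cells, and CD8 T cells read peptide on MHC class I and can kill their targets. Both lineages arise in the thymus from a common precursor, and they are known to share receptor signalling and adaptor genes that B cells and myeloid cells lack, while NK cells share part of this equipment. Because no name could be paired with an identifier, which of these known genes are among the 100 was not determined, and the T cell identity of the sorted samples could not be checked against Cd3e, Cd4 or Cd8a.

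Total counts per sample ranged from 3429971, in a neutrophil sample, to 14146402, with a median of 11019514. No 2 samples held identical values. Over 13834 transcripts outside the lists used here, 11 of the 12 T cell samples were correlated more closely with a sample of the other T cell type than with any of their own. The gap was widest for CD8 T replicate 5, with r = 0.977 to CD4 T replicate 5 and at most 0.963 to its own type. NK replicate 5 was the only 1 of 6 NK samples nearer to another type (r = 0.976 to CD8 T replicate 5, at most 0.961 to its own), and 0 of 6 B samples were. CD4 T samples 1, 2, 4, 5 and 6 each matched best the CD8 T sample of the same number.

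Of the 31196 transcripts, 12319 reached 2 CPM in both T cell types and 12029 of these also had the 2 T cell levels within 1.5 of each other. Of those, 153 had an excess over 1.5. The liver condition left 110, of which the first 100 are the members. All values in this and the next 3 paragraphs come from the samples that chose the members and are given without a test. The excess of the members ran from 1.54 to 2.73 with a median of 1.88, and 36 members were over 2. The member at rank 1 had means of 8.89 CPM in CD4 T and 7.90 CPM in CD8 T against 1.66 in B, 1.23 in NK, 2.25 in monocytes and 0.326 in neutrophils, and was listed at 0 in the livers. The member at rank 100 had 34.4 CPM in CD4 T and 24.4 CPM in CD8 T against 15.6 in NK, its next type, and an excess of 1.536. The first transcript outside had 10.2 and 7.23 CPM against 4.37 in B and an excess of 1.533, so the limit of 100 fell within a run of near-equal values.

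The members were enriched in T cells but few were limited to them. The next-highest type was B cells for 63 members, NK cells for 31, neutrophils for 4 and monocytes for 2. In 88 members that next type had a mean over 2 CPM, and in 80 members all 4 other types had a mean over 1 CPM. Monocytes and neutrophils were both under 1 CPM in only 10 members. Among the 4 other types an order was visible, since monocytes and neutrophils both lay under B and NK cells in 83 members. With 1 CPM added to both sides, the median ratio to the mean of the 2 T cell types was 0.456 in B, 0.438 in NK, 0.323 in monocytes and 0.287 in neutrophils. The CD4 mean was above the CD8 mean in 66 members, with CD4-to-CD8 ratios from 0.711 to 1.49 and a median of 1.08.

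Summed over the 100 members, the level was 7240.4, 7365, 6301, 5030.2, 4021 and 5523 CPM in CD4 T samples 1 to 6. In CD8 T samples 1 to 6 it was 6561, 7128, 5057, 5787, 3252 and 5516 CPM. The lowest, median and highest sums were 2021, 2658 and 3100 CPM (3099.6) in B cells and 2352, 2449 and 2572 CPM in NK cells. They were 1646, 1692 and 2166 CPM in monocytes and 1361, 1718 and 2003 CPM in neutrophils. All 12 T cell samples thus had a higher sum than all 24 other sorted samples, and the closest approach was CD8 T replicate 5 to the highest B sample.

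**Figure D1:**
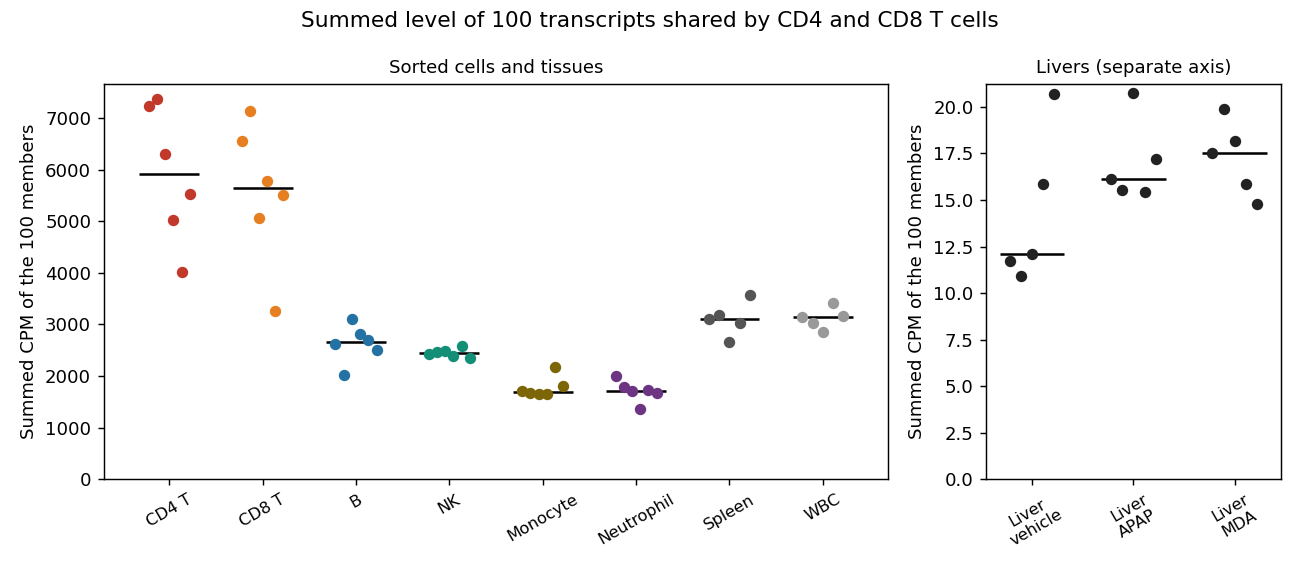
Summed CPM of the 100 members in every sample, by group, with 1 point a sample, a line at the group median and a separate axis for the livers. CD4 T and CD8 T samples (3252 to 7365 CPM) lay above the other sorted types (1361 to 3100 CPM), spleen and WBC lay between 2660.4 and 3566 CPM, and the livers lay under 21 CPM.

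Sample by sample, the separation was less complete than in the sums. In 22 members all 12 T cell samples were above all 24 other sorted samples (background 0.303% of the 14172 transcripts that averaged 1 CPM or more over the sorted types), a count that the rule itself favours. In 87 members at least 6 of the 12 T samples were above all 24 others, and no member had none. The rule favours these counts too, and their share over all transcripts was not counted. The member at rank 2, ENSRNOT00000073530, was one of the 22, with a lowest, median and highest value of 42.0, 59.7 and 78.2 CPM in CD4 T and of 30.2, 67.0 and 87.3 CPM in CD8 T. Its highest value outside T cells was 28.4 CPM, in a B cell sample. The member at rank 11, ENSRNOT00000016420, ran from 30.1 to 56.2 CPM in CD4 T and from 20.3 to 54.9 CPM in CD8 T, against at most 17.01 CPM in any sample of the other 4 types. Across members the coefficient of variation between samples had a median of 28.4% in CD4 T and 33.2% in CD8 T.

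**Figure D2:**
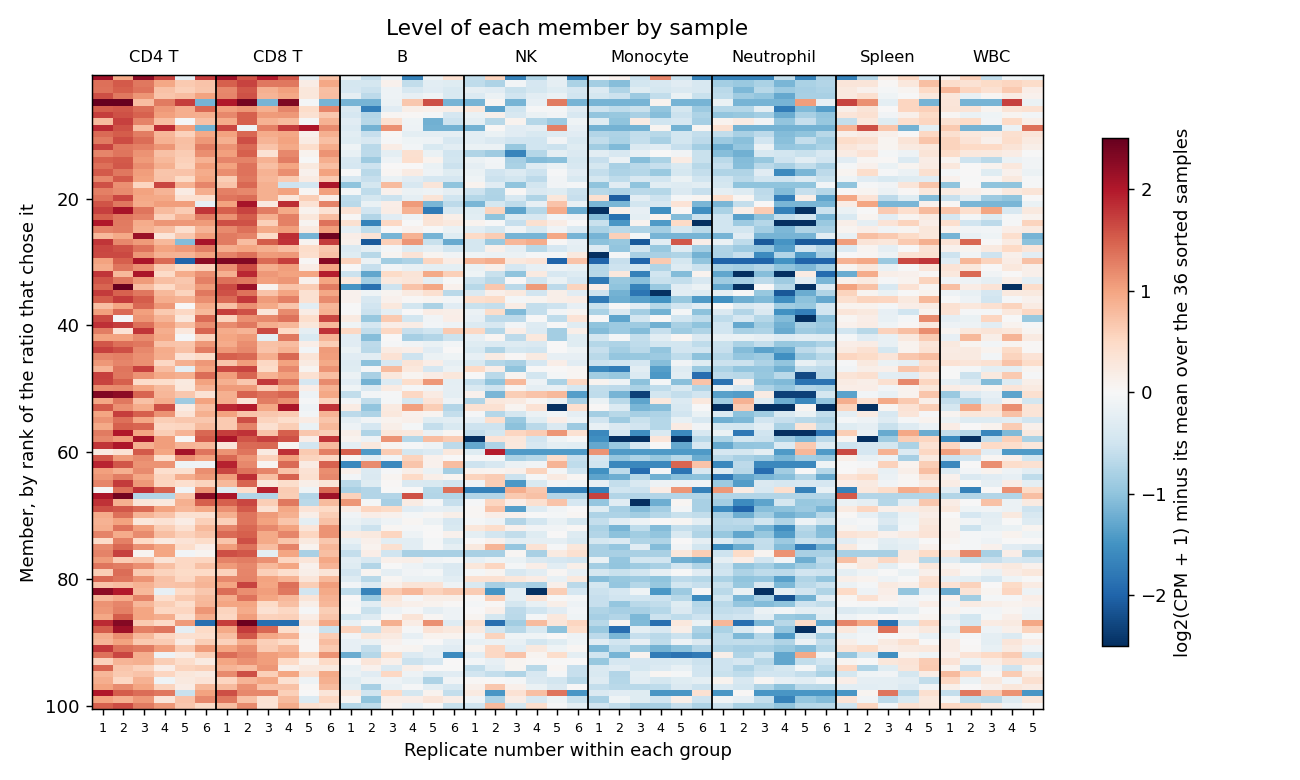
Level of the 100 members (rows, by rank) in every sorted, spleen and WBC sample (columns, by group and replicate number), as log2(CPM + 1) minus the mean of that member over the 36 sorted samples, red above and blue below it. The CD4 T and CD8 T columns are the highest for most rows, the replicate 5 columns are paler than the other T cell columns, and the monocyte and neutrophil columns are the lowest.

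The T cell samples were not alike. Of the 100 members, 59 had their lowest CD4 T value in replicate 5 and 83 had their lowest CD8 T value in replicate 5, where an even spread over 6 samples would give 16.7%. These values also come from the samples that chose the members and are given without a test. The members were chosen together and are not independent of each other, and the same share over all transcripts was not counted. The highest value fell in replicate 2 for 47 members in CD4 T and for 62 in CD8 T. The same replicates were thus low, and the same high, in both T cell types, although the cells passed different gates.

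To read the members in samples that had not chosen them, the rule was applied again without 1 replicate number in all 6 sorted types, and the transcripts it gave were read in the replicate left out. The rule was met by 97, 95, 105, 108, 124 and 104 transcripts without replicates 1 to 6, and 86, 84, 88, 91, 93 and 93 of the 100 members were found again among the first 100. In the replicate left out, the lower T cell level was above all 4 other types for 90 of 97, 89 of 95, 79 of 100, 76 of 100, 53 of 100 and 91 of 100 transcripts. Among all 14172 transcripts the same order held for 18.1%, 11.6%, 19%, 12.9%, 13.7% and 9.84% in replicates 1 to 6. The excess was found again at its size in replicates 1 and 2, where its median was 1.89 and 1.99, and it was lower in replicates 3 (1.47), 4 (1.42) and 6 (1.62). In replicate 5 the median was 1.02, and 2 of the 100 transcripts passed 1.5, against 73, 64, 42, 39 and 61 in replicates 1, 2, 3, 4 and 6.

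**Figure D3:**
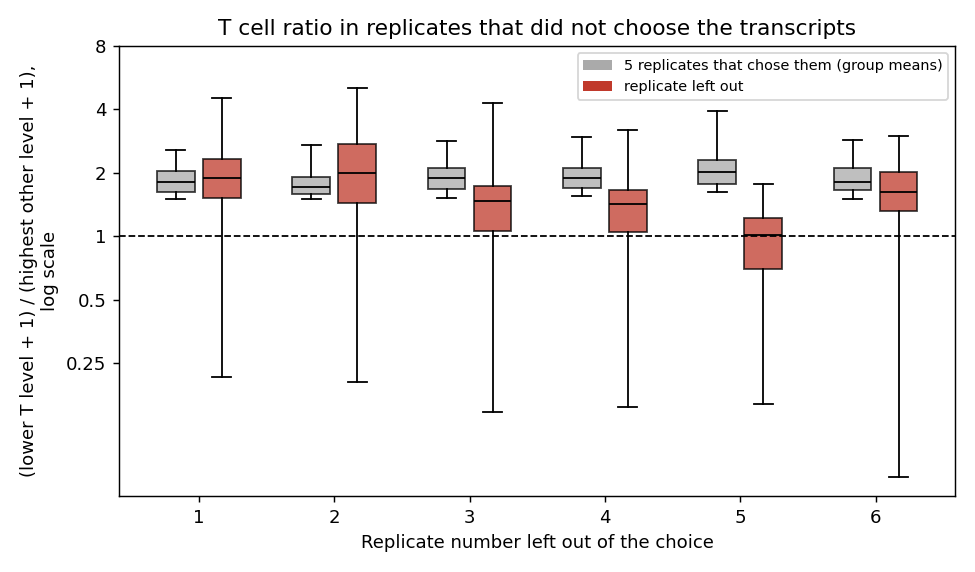
T cell excess (log axis) of the transcripts chosen without each replicate number, over the means that chose them (grey) and in the replicate left out (red), with the median as a line, the middle 50% as a box and whiskers to the lowest and highest value. Medians in the replicate left out were 1.89, 1.99, 1.47, 1.42, 1.02 and 1.62 for replicates 1 to 6, so replicate 5 alone was centred near 1.

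Transcripts highest in B cells, chosen by the same form of rule without the replicate read, ran opposite to the held-out T cell lists at the extremes. The order of the replicates was not an exact reverse. The 100 B-highest transcripts summed to 1706, 1846, 3722, 4639, 7247 and 4115 CPM in CD4 T samples 1 to 6. In CD8 T samples 1 to 6 they summed to 1992, 2117, 4523, 3331, 8038 and 3129 CPM. The held-out T cell lists summed in the same samples to 7574, 8160, 6655, 4884, 3976 and 5572 CPM in CD4 T and to 6710.4, 7896, 5314, 5615, 3203 and 5534 CPM in CD8 T. Replicates 1 and 2, with the highest T cell sums, had the lowest B-highest sums, and replicate 5 was the reverse in both types. The lists of the other types were also at their highest in replicate 5. NK-highest transcripts summed there to 712 CPM in CD4 T (the other samples 420.4 to 569) and 898 CPM in CD8 T (the others 484 to 758). Monocyte-highest transcripts summed to 659 CPM in CD4 T (the others 239 to 467) and 701 CPM in CD8 T (the others 322 to 494), and neutrophil-highest transcripts to 407 CPM (171 to 293) and 456 CPM (204 to 393). The NK sample numbered 5 also held the most B-highest transcript (7766 CPM, the other NK samples 2221 to 4909 CPM) and the least NK-highest transcript (1180 CPM, the others 3326 to 9138 CPM). These levels moved with the excess of the members, and their part in it was not tested. The lists are not named cell type markers, because no name was available to check them.

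**Figure D4:**
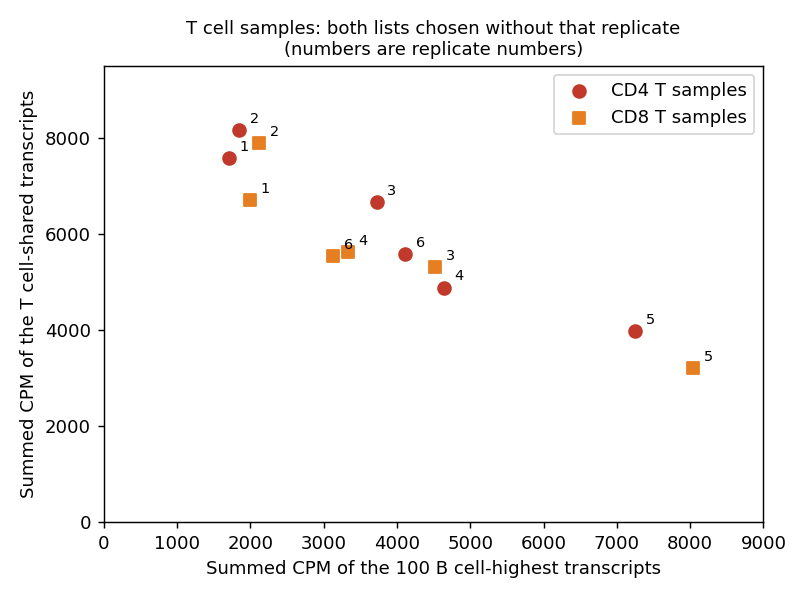
Summed CPM of the held-out T cell lists (vertical axis) against that of the 100 B-highest transcripts (horizontal axis) in the 6 CD4 T and 6 CD8 T samples, each labelled with its replicate number. Replicates 1 and 2 lie at the upper left and replicate 5 at the lower right in both types.

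Spleen and WBC, which the rule did not use, held the members at intermediate levels. The sums were 2660.4 to 3566 CPM in spleen (median 3106) and 2859 to 3415 CPM in WBC (median 3138), and the 2 ranges overlapped. Relative to the mean of the T cell types, the median ratio was 0.548 in spleen and 0.537 in WBC, and neither tissue was above the T cell mean for any member. The spleen mean was above both the B and the NK mean in 72 members, and the WBC mean was above both the monocyte and the neutrophil mean in 92. The sorted-cell means used here are the values that chose the members, high in T cells and lower in the other types. The rule therefore favours these ratios and counts, and their share over all transcripts was not counted. In such mixed samples fewer cells of a type and less RNA per cell cannot be told apart.

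The comparison of spleen with WBC asked whether the members differ between 2 untreated mixtures of immune cells. Of the 100 members, 95 had a mean of at least 1 CPM over the 10 samples and were tested, and 22 passed an adjusted p of 0.05 (edgeR quasi-likelihood test, Benjamini-Hochberg over 13885 transcripts). That was 23.2% of the members tested, against 46.6% of all transcripts tested. Most of these calls were in 1 direction: 18 members were lower in spleen (18.9%, background 23.9%) and 4 were higher (4.21%, background 22.7%). The changes were small: over the 95 members the log2 fold changes had a median of -0.09 (middle 50% from -0.33 to 0.13) and a median standard error of 0.18. Over all transcripts the median was 0.02 (middle 50% from -0.32 to 0.32). The log2 fold change passed 1 in size in 6 members, and ran from -1.28 to 1.20 over the members. Of all transcripts, 0.699% were below -2.8 and 0.907% above 2.8, and their share past 1 in size was not counted. The 5 spleen values lay wholly on 1 side of the 5 WBC values in 7 of the 95 members (background 37.5%), and 6 of these 7 also passed the test (background 31.3%), 3 of them higher and 3 lower in spleen. The split of directions depended on scaling. Without TMM scaling the median of all transcripts moved from 0.02 to 0.18, and the median of the members was 0.08. At this setting 10 of the 95 members were higher and 7 lower in spleen, beside 4881 higher and 2045 lower of all 13885 transcripts. Without spleen replicate 2, 11 members were lower. Without spleen replicate 4 or 5, or without WBC replicate 2, 3 or 4, 2 members were higher in each case.

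**Figure D5:**
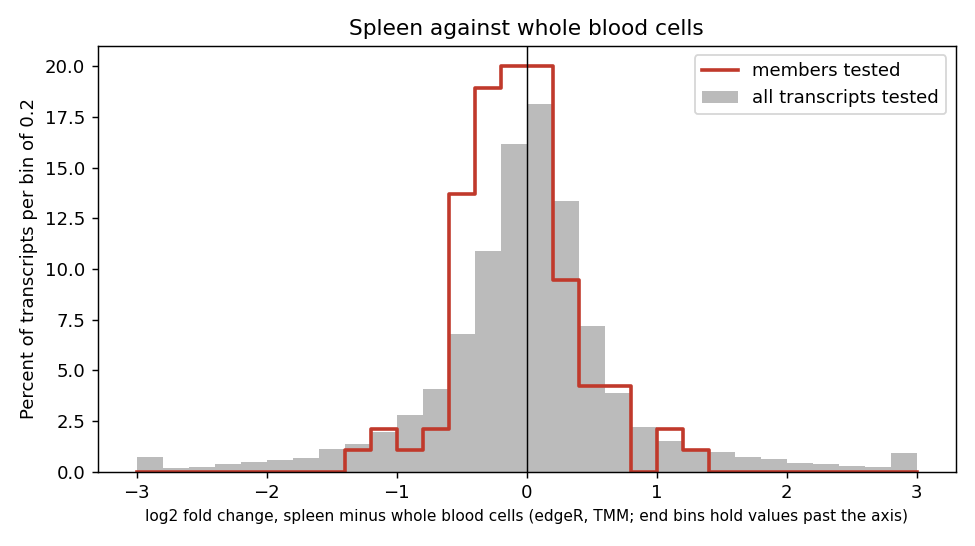
Distribution of the log2 fold change of spleen against WBC for the 95 members tested and for all 13885 transcripts tested, as percent of each set per bin. The members are centred at -0.09 and all transcripts at 0.02, and 6 members are past 1 in size. The values of all transcripts reach further out on both sides.

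The member with the highest log2 fold change among those that passed the test with groups apart was ENSRNOT00000075087, at rank 49. It measured 3.14, 2.984, 3.76, 7.29 and 4.21 CPM in spleen and 2.08, 1.85, 0.698, 1.90 and 2.975 CPM in WBC. The groups were separated by a narrow gap, and spleen replicate 4 was well above the rest. The means were 4.28 ± 1.76 and 1.90 ± 0.812 CPM (SD, n = 5 each), with a log2 fold change of 1.004 (SE 0.38, edgeR adjusted p = 0.0490). The call was lost in 9 of 15 alternatives (adjusted p from 0.0156 to 0.134), and without spleen replicate 4 the log2 fold change was 0.73 with an edgeR adjusted p of 0.134.

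ENSRNOT00000065376, at rank 52, also rose in spleen and was stable. It measured 11.8, 7.94, 12.1, 9.80 and 6.57 CPM in spleen and 3.53, 3.19, 4.64, 6.30 and 3.99 CPM in WBC. The means were 9.66 ± 2.42 and 4.33 ± 1.23 CPM (SD, n = 5 each), with a log2 fold change of 1.0002 (SE 0.21, edgeR adjusted p = 0.00274). In the sorted T cells it ran from 2.71 to 15.9 CPM in CD4 T and from 5.73 to 15.5 CPM in CD8 T, ranges that overlapped those of every other sorted type, among which the highest sample was a neutrophil sample at 11.5 CPM.

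Among the members that passed the test with groups apart, the 2 with the lowest log2 fold changes were ENSRNOT00000077857 at rank 56 and ENSRNOT00000068493 at rank 17. ENSRNOT00000077857 measured 6.37, 6.83, 5.15, 6.31 and 7.25 CPM in spleen and 9.42, 8.15, 8.62, 13.2 and 8.96 CPM in WBC, with no overlap. Its means were 6.38 ± 0.785 and 9.67 ± 2.02 CPM (SD, n = 5 each), and its log2 fold change was -0.76 (SE 0.14, edgeR adjusted p = 0.00140). ENSRNOT00000068493 measured 5.17, 4.42, 4.097, 4.38 and 4.41 CPM in spleen and 6.12, 5.55, 5.78, 6.81 and 5.48 CPM in WBC, also with no overlap. Its means were 4.50 ± 0.402 and 5.95 ± 0.543 CPM (SD, n = 5 each), and its log2 fold change was -0.56 (SE 0.10, edgeR adjusted p = 0.00119). Both were above all B, NK and myeloid means in the sorted T cells, by the rule, and were lower in the tissue from which those T cells had been sorted. ENSRNOT00000065376 and these 2 members kept their calls in all 15 alternatives.

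Lists chosen by the same form of rule for 1 cell type at a time are set beside the members as a description, with no test between lists. Of 47 tested CD4 T-highest transcripts, 9 were lower (19.1%, background 23.9%) and 4 higher (8.51%, background 22.7%) in spleen, and their log2 fold changes had a median of -0.30. Of 15 tested CD8 T-highest transcripts, 3 were higher (20%) and 0 lower, and the median was 0.27. Of 95 tested B-highest transcripts, 69 were higher (72.6%) and 3 lower, and the median was 1.13. Of 62 tested NK-highest transcripts, 23 were higher (37.1%) and 0 lower, and the median was 0.46. The median of the shared T cell members, -0.09, lay between those of the CD4 and the CD8 list, while their share called higher, 4.21%, was under that of all 4 lists.

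In the livers the members were near the limit of detection by the rule, and the comparisons asked whether a toxic dose moved them. The mean under 1 CPM that the rule required was taken over all 15 livers, the treated ones included. A transcript raised well past that level by a toxicant was thus left out in advance. The background shares come from transcripts without this limit, so the counts of members raised cannot be compared directly with them. The sums over the 100 members had a lowest, median and highest value of 10.9, 12.1 and 20.7 CPM after vehicle, 15.4, 16.1 and 20.8 CPM after APAP, and 14.8, 17.5 and 19.9 CPM after MDA, and the 3 ranges overlapped. Of the members, 38 were listed at 0 in all 15 livers and 66 had a mean under 0.1 CPM. The other 34 were tested, and 17 of these had a median of at most 3 counts a sample. APAP lowered 2 of the 34 (5.88%, background 15.4% of 18427 transcripts) and raised 0 (background 16.1%) against vehicle by edgeR. In either direction 31.5% of all transcripts passed. An unadjusted edgeR p under 0.05 was found for 8 of the 34 members, beside 7673 of all 18427 transcripts. DESeq2 called 4 lower, limma 4 higher and 2 lower, and edgeR without TMM scaling 2 higher and 2 lower. Of all 18427 transcripts, DESeq2 called 3029 higher and 3123 lower. Limma called 8212 of them higher and 1137 lower, and edgeR without TMM scaling 7926 higher and 1050 lower. MDA raised 0 (background 7.99%) and lowered 0 (background 8.07%) of the 34 by edgeR (either direction 16.1%). Here 3 of the 34 had an unadjusted edgeR p under 0.05, beside 5272 of all 18427 transcripts. For MDA, DESeq2 called 1 member lower, beside 1577 higher and 1889 lower of all transcripts. Limma called 1 member higher and 2 lower, beside 6033 higher and 639 lower of all transcripts. Between APAP and MDA, 1 member was lower after APAP (background 12.2%) and 0 higher (background 12.1%, either direction 24.3%). The standard error of a log2 fold change for APAP ran from 0.37 to 2.42 with a median of 0.90, and was under 0.5 in 8 of the 34 members, so for most members a log2 change of 1 was less than 2 standard errors. The median log2 fold change of the 34 was -0.46 after APAP and -0.20 after MDA, and became 0.03 and 0.24 without TMM scaling, which moved the median of all transcripts to 0.73 and 0.54.

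The 2 members that passed the test in liver are named after their values were seen. ENSRNOT00000073530, at rank 2, measured 0.717, 0.463, 1.18, 0.432 and 1.05 CPM after vehicle and 0.0982, 0.275, 0.203, 0 and 0 CPM after APAP. All 5 APAP livers were under all 5 vehicle livers. ENSRNOT00000007485, at rank 3, was separated the other way, with means of 1.44 CPM after APAP and 0.481 CPM after vehicle. It did not pass the test (log2 fold change 0.89, edgeR adjusted p = 0.139). The share of all transcripts separated in this way in the livers was not counted. The log2 fold change of ENSRNOT00000073530 was -3.45 (SE 0.84, edgeR adjusted p = 0.00541). The APAP livers together held 6.44 counts and the vehicle livers 46.0, a ratio of 0.146 after division by the summed library totals (95% interval 0.0474 to 0.319, exact and for counting error only). After MDA it measured 0.146, 0.262, 0.0891, 0.529 and 0.214 CPM, which overlapped both other groups. In the same transcript the sorted T cells ranged from 30.2 to 87.3 CPM.

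ENSRNOT00000016420, at rank 11, measured 0.333, 0.573, 1.13, 1.12 and 1.17 CPM after vehicle, 0.351, 0.427, 0.213, 0.321 and 0.220 CPM after APAP and 2.48, 1.98, 0.952, 1.87 and 1.68 CPM after MDA. All 5 APAP livers were under all 5 MDA livers, whereas the APAP and vehicle ranges overlapped. The log2 fold change was -2.76 for APAP against MDA (SE 0.44, edgeR adjusted p = 0.000329) and -2.20 for APAP against vehicle (SE 0.44, edgeR adjusted p = 0.00130). The count ratios, also relative to library totals, were 0.172 (95% interval 0.0959 to 0.285) and 0.351 (95% interval 0.188 to 0.611). Both members kept these calls in all 16 alternatives. The TMM scaling enters the size of these changes, since the counts are divided by effective library sizes. Without it the log2 fold change of ENSRNOT00000016420 was -1.57 for APAP against vehicle and -2.61 for APAP against MDA. That of ENSRNOT00000073530 for APAP against vehicle was -2.73 without it.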

How the data were processed

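RNA was measured by sequencing in 61 samples of 11 groups. The authors trimmed reads with PRINSEQ++, quantified transcripts with Salmon 1.6.0 on Ensembl cDNA and collected them in R 4.1.3; the labels list the builds Rnor_6.0 and mRatBN7.2. The deposited values were taken as estimated counts, although the methods name TPM: column totals run from 3429971 to 14146402 and whole numbers make up 0% of the non-zero values. Whether they were scaled by transcript length is not given in the sources used here. CPM was computed from the column totals.

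The members and the comparison lists were chosen with earlier results of these data known. Estimated counts were rounded and tested with edgeR 4.0.16 in R 4.3.3 (quasi-likelihood test, TMM, Benjamini-Hochberg over all transcripts), for spleen against WBC with a mean of at least 1 CPM and for the 15 livers in 1 fit with at least 0.1 CPM. Standard errors were derived from the F statistic. The fits were tested on simulated data. Alternatives used DESeq2 1.42.0, limma 3.58.1, other filters, no TMM scaling, a replicate block and each sample left out. Members named for spleen against WBC were the 2 highest and the 2 lowest log2 fold changes among those past the threshold with groups apart. Intervals cover counting error only. Gene names, sequences and coordinates were not used, because no identifier matched the reference.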

Additional observations from a re-analysis of the deposited data

Results flagged for a closer look

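Of 25 groups of values checked for an outlying sample, 3 stood out by the gap of their highest sample to the next, and chance alone flags about 1 group in 20. The summed CPM of the 100 members in monocytes was 2165.95 in replicate 5, where the median of the 6 samples was 1692. ENSRNOT00000075087 was at 7.29 CPM in spleen replicate 4, where the other spleens measured 2.984 to 4.21 CPM, and its call in spleen against WBC was lost without that sample. ENSRNOT00000077857 was at 13.2 CPM in WBC replicate 4, where the other WBC samples measured 8.15 to 9.42 CPM, and its call was kept without that sample.

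For ENSRNOT00000016420 the livers of the 2 toxicants differed in the direct test of APAP against MDA, the test for which it is listed here. The log2 fold change was -2.76 (edgeR adjusted p = 0.000329), lower in all 5 APAP livers than in all 5 MDA livers. Against vehicle, MDA had a log2 fold change of 0.56 (edgeR adjusted p = 0.399), which did not pass the threshold.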

How the results depend on the processing

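Membership changed moderately: 95 to 124 transcripts met the rule with 1 replicate number left out, and 84 to 93 of the 100 members were found again. For spleen against WBC, 4 members were higher and 18 lower. The higher count was 10 without TMM, 11 with limma on unscaled log2 CPM, 2 without a filter on low values and 2 to 5 with 1 sample left out. The lower count was 7 without TMM, 9 with limma and 11 to 26 with 1 sample left out (26 without spleen replicate 5). Over all 13885 transcripts, 4881 were higher and 2045 lower without TMM, and 4991 higher and 2038 lower with limma. The median log2 fold change of the members turned to 0.078 without TMM and 0.060 with limma. Correlations of same-numbered deviations ran from -0.0057 to 0.0276 between spleen and WBC and from -0.293 to 0.170 between liver groups. For spleen and WBC such values, from different tissues and few samples, cannot decide whether samples of the same number share a rat. With a replicate block in spleen against WBC, 2 members were higher and 13 lower. For APAP against vehicle the higher count was 2 without TMM, 4 with limma and 0 to 1 with 1 sample left out (1 without APAP replicate 3 or 5), the lower count was 4 with DESeq2, and the median turned to 0.0274 without TMM and 0.0270 with limma. For MDA, limma called 1 higher and 2 lower, DESeq2 called 1 lower and leaving out 1 sample gave 0 to 1 lower (1 without MDA replicate 4), and the median turned to 0.24 without TMM and 0.19 with limma. For APAP against MDA, 1 to 2 members were lower with 1 sample left out (2 without APAP replicate 2 or MDA replicate 4). The cause of these shifts was not tested. Lists chosen without the doubted replicate 5 samples of CD4 T, CD8 T and NK cells kept 94 of the 100 members. In the livers, where the rule kept the members under 1 CPM, 66 were below the filter.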

Other observations

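The shared T cell excess is set here beside the excess of single cell types by the same form of rule, which chose each list on these samples. Among all 31196 transcripts no transcript had a shared T cell excess over 2.84, and the highest excess under the liver condition was 2.73. The highest excess of a single type was 61.9 in neutrophils, 31.1 in CD4 T cells, 11.1 in NK cells, 7.58 in monocytes, 3.61 in CD8 T cells and 3.05 in B cells. The median over the first 100 transcripts of each list was 5.93 in neutrophils, 3.98 in NK cells, 3.36 in monocytes and 2.03 in B cells, beside 1.88 for the shared T cell list. The CD4 T-highest and CD8 T-highest lists held 59 and 20 transcripts in all, with medians of 1.80 and 1.86.

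The liver condition removed 43 of the 153 transcripts with a shared T cell excess over 1.5, and 34 of these 43 had a higher excess than the member at rank 100. Without that condition 76 of the 100 members were among the first 100. The 43 transcripts had a median of 4.08 CPM over the livers.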
